A study of Drosophila melanogaster with 2 samples.

Results

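The 290 transfer RNA (tRNA) genes on the X chromosome and arms 2L, 2R, 3L and 3R of Drosophila melanogaster were examined for binding of the protein CG2202. They were chosen by biotype alone, as every gene annotated as tRNA on the 6 arms of the Ensembl BDGP6 annotation, and they are 290 of 17896 genes there. Arm 4 held 0 of them. Chromatin immunoprecipitation and sequencing (ChIP-seq) was done on whole embryos aged 0 to 12 h from 1 transgenic line, in which CG2202 carries green fluorescent protein (GFP) at its C terminus, with an antibody against GFP. The 2 biological replicates form 1 group, and no second genotype, treatment or age was analysed here, so the values below compare tRNA genes with other genes, and tRNA genes with each other. Whole embryos mix all cell types, so a peak in a few cells and a weak peak in many cannot be told apart. The chromatin was sonicated, with a labelled size range of 200 to 800, so summits are less finely placed than the short elements of a tRNA gene.

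RNA polymerase III makes tRNAs from promoters that lie inside the transcribed sequence. The A box near the start of the gene and the B box near its end are bound by the factor TFIIIC, which places TFIIIB upstream of the start, and TFIIIB recruits the polymerase. In Drosophila the TFIIIB of tRNA genes uses Trf, a relative of the TATA-binding protein, together with Brf and Bdp1. Many tRNA genes are identical copies scattered in clusters or lie inside introns of protein_coding genes.

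These 5 tRNA genes are examples, each nearest to 1 of the stronger summits that had no protein_coding transcription start site (TSS) within 500 bp. They are not the strongest in order. Some summits stronger than that at tRNA:Ser-AGA-2-4 (pooled signal 81.4) lay farther from the gene start and are not shown. Those at tRNA:Lys-TTT-1-1 (93.7), tRNA:Pro-AGG-1-1 (88.5) and tRNA:Lys-TTT-2-1 (83.9) lay 324 bp downstream, 237 bp upstream and 475 bp upstream. Other stronger summits lay within 100 bp of a gene start and are not shown either. Examples are those at tRNA:Ser-CGA-1-4 (110.2) and tRNA:Glu-CTC-1-1 (105.2). The 5 genes are written 5′ to 3′ on the strand of the gene, from the RefSeq Release 6 genome (dm6), and capitals mark the A box and B box.
tRNA:Ser-GCT-1-1 gene, chr3R:22397180-22397261, minus strand: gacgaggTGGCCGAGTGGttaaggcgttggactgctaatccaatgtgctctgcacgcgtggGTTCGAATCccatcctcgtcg
tRNA:Ser-AGA-2-4 gene, chr2L:3173003-3173084, minus strand: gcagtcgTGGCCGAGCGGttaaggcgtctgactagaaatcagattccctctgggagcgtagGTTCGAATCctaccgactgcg
tRNA:Ala-AGC-2-6 gene, chr3R:17645307-17645379, minus strand: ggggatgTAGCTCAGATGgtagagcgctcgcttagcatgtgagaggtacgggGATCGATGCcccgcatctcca
tRNA:Pro-AGG-1-3 gene, chr2L:14599396-14599467, minus strand: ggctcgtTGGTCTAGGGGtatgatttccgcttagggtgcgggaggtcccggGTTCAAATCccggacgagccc
tRNA:Gln-TTG-2-1 gene, chrX:3427452-3427523, minus strand: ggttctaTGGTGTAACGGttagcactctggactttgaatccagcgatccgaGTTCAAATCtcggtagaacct
In each gene the A box starts at base 8, and the B box starts at base 52, 53 or 62. The summit lay inside the gene at tRNA:Ser-GCT-1-1, 49 bp after its start, and at tRNA:Ser-AGA-2-4, 39 bp after its start. It lay 65 bp upstream of tRNA:Ala-AGC-2-6, 97 bp upstream of tRNA:Pro-AGG-1-3 and 224 bp upstream of tRNA:Gln-TTG-2-1. The gene sequence of tRNA:Ser-GCT-1-1 and that of tRNA:Gln-TTG-2-1 occur once on the arms, while the others occur 5 times (tRNA:Ser-AGA-2-4), 11 times (tRNA:Ala-AGC-2-6) and 7 times (tRNA:Pro-AGG-1-3). The next 4 sequences are the 101 bases around summits of the strictest peak list, described below, in which no tRNA-proximal summit lay inside a tRNA gene. They are given on the plus strand, and the capital is the summit base.
tRNA:Tyr-GTA-1-8 summit window, chr3R:8669310-8669410, plus strand: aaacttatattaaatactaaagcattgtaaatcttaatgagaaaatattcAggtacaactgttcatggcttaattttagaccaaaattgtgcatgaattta
tRNA:Gln-TTG-2-1 summit window, chrX:3427697-3427797, plus strand: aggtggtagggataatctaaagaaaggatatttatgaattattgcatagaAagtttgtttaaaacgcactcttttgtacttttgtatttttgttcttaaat
tRNA:Leu-TAA-2-1 summit window, chr3R:24112789-24112889, plus strand: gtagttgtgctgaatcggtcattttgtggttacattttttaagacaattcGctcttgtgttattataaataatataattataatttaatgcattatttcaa
tRNA:Phe-GAA-1-2 summit window, chrX:6744183-6744283, plus strand: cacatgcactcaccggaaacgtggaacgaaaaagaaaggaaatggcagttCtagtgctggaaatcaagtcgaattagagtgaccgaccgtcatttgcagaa
The GC content of these windows was 24.8%, 26.7%, 24.8% and 45.5% in the order given, against 47.2% to 62.5% in the 5 genes shown.

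Summits were found near more than 1 in 2 tRNA genes in the longest peak lists, but near few of them in the strictest one. The deposited lists are 1 of 30000 peaks for each replicate, a pooled list of 30000 peaks, and a list of 3571 peaks. The last was selected by irreproducible discovery rate (IDR), a method meant to keep peaks ranked alike in both replicates. Its peaks are also the 3571 strongest of the pooled list, and membership alone does not give similar replicate ranks. Each peak has a summit, its highest point, and a signal, the caller's own value, which is comparable within 1 list only. A gene was counted when a summit lay within 500 bp of its TSS. Intervals are exact (Clopper-Pearson) 95% intervals that cover the counting of genes or peaks only, and genes that share a summit are not independent.

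In the pooled list 174 of 290 tRNA genes had a summit within 500 bp, or 60.0% (54.1 to 65.7%), against 53.5% of protein_coding genes and 48.7% of all genes. In replicate 1 the count was 158 tRNA genes (54.5%), against 50.6% of protein_coding genes and 46.5% of all genes. In replicate 2 it was 187 tRNA genes (64.5%), against 55.4% of protein_coding genes and 50.2% of all genes. The tRNA share was above both others in each of these 3 lists. A summit was present in both replicate lists for 126 tRNA genes, in 1 of them for 93 and in neither for 71.

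The order was the other way among strong peaks. In the IDR list 14 tRNA genes had a summit within 500 bp, or 4.83% (2.66 to 7.97%), against 14.1% of protein_coding genes and 12.1% of all genes. Among the 3571 peaks of highest signal of each replicate, 10 tRNA genes (3.45%) in replicate 1 stood against 12.4% of protein_coding genes and 10.9% of all genes. In replicate 2, 15 tRNA genes (5.17%) stood against 15.8% of protein_coding genes and 13.4% of all genes. At a pooled q-value below 0.05, the false discovery rate given by the caller, the shares were close, at 38.3% of tRNA genes, 39.9% of protein_coding genes and 34.9% of all genes. No test was made of these differences, because genes and peaks are not replicates of the experiment. The shares were not adjusted for the larger number of TSSs per protein_coding gene, and its part in these differences was not tested. The IDR share of tRNA genes was 2.41% with a window of 250 bp and 7.59% with a window of 1000 bp.

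**Figure D1:**
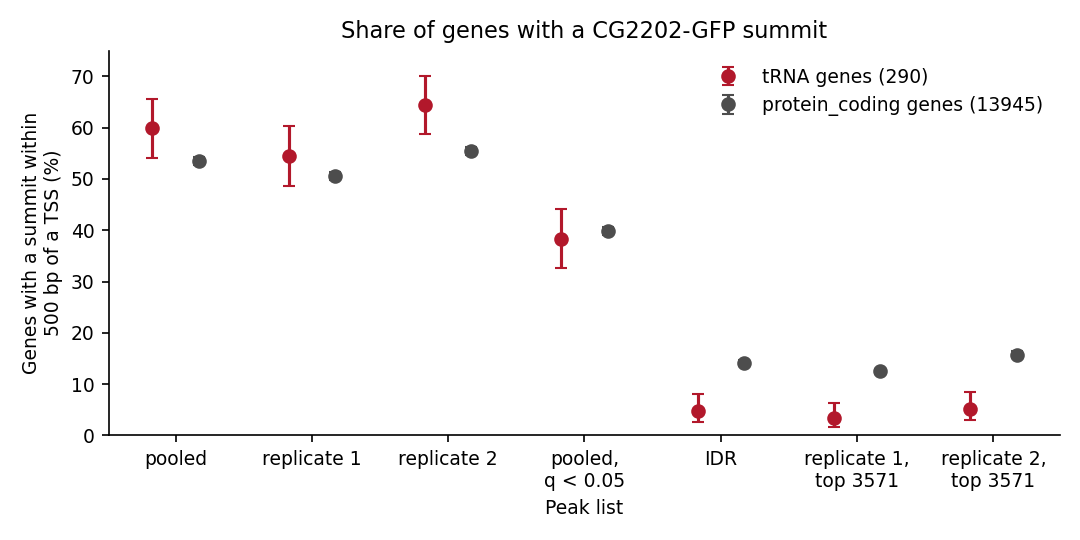
Share of genes (%, y axis) with a summit within 500 bp of a TSS in 7 peak lists or list subsets (x axis), for tRNA genes (red) and protein_coding genes (grey). Points are shares and bars are exact 95% intervals, which for protein_coding genes are often smaller than the point. The tRNA share is the higher one in the pooled and both replicate lists, and the lower one in the IDR list (4.83% against 14.1%) and in the top 3571 peaks of each replicate.

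A protein_coding TSS close by went with the IDR summits of tRNA genes. Of the 32 tRNA genes with a protein_coding TSS within 500 bp, 7 (21.9%) had an IDR summit, against 7 (2.71%) of the 258 without one. Both sets gave higher shares in the pooled list, 22 of 32 (68.8%) against 152 of 258 (58.9%). In the top 3571 peaks the shares were 18.8% against 1.55% in replicate 1, and 21.9% against 3.10% in replicate 2. The tRNA genes lying inside a protein_coding gene had an IDR summit in 2 of 134 cases (1.49%), against 12 of 156 (7.69%) for those lying between protein_coding genes. In the pooled list the same sets had 77 of 134 (57.5%) against 97 of 156 (62.2%).

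Counting each shared peak once, 168 pooled peaks, 11 IDR peaks, 131 peaks of replicate 1 and 171 peaks of replicate 2 had a summit within 500 bp of a tRNA TSS. They are called tRNA-proximal below, and isolated where no protein_coding TSS lay within 500 bp of the summit. Of the 168 pooled peaks, 140 were isolated and 28 lay beside a protein_coding TSS, and 59 lay within 500 bp of several tRNA genes. Of the 11 IDR peaks, 5 were isolated and 6 lay beside a protein_coding TSS, which was nearer than the tRNA TSS for 4 of the 6. Around the isolated pooled summits, 136 of 140 had no TSS but that of a tRNA gene within 500 bp, and the other 4 had a snoRNA TSS there. Isolated does not mean intergenic, since 62 of the 140 summits lay inside a protein_coding gene.

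The tRNA-proximal peaks were close to the middle of the pooled list in strength. Their pooled signal was 26.8 at the lowest, 49.4 at the median and 829.8 at the highest, against a median of 44.1 for the whole list. As a rank percentile, where 100 is the strongest peak of the list, the median was 57.4 for all of them, 53.7 for isolated peaks and 65.9 for those beside a protein_coding TSS. The median percentile was 55.9 in replicate 1 and 55.4 in replicate 2. A q-value below 0.05 was reached by 86 of the 168 peaks (51.2%), against 44% of the pooled list. The strongest 3571 pooled peaks, which are the IDR peaks, held 11 of the 168 (6.55%), against 11.9% of the pooled list. That share was 5 of 140 (3.57%) for isolated peaks and 6 of 28 (21.4%) beside a protein_coding TSS.

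The strongest tRNA-proximal peak lay at tRNA:Tyr-GTA-1-8 (FBgn0012024, chr3R:8669081-8669174, minus strand), a tyrosine tRNA gene. The peak at chr3R:8669192-8669569 had a signal of 829.8 in the pooled list, 363.3 in replicate 1 and 457.7 in replicate 2, and ranked 68, 93 and 87 in these lists of 30000. Its summit lay 186 bp upstream of the tRNA gene and 258 bp upstream of a TSS of CG8036. It therefore counts as beside a protein_coding TSS, although the tRNA TSS was the nearer one. Its AT-rich summit window is the first of the 4 windows shown above.

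The strongest isolated peak lay 224 bp upstream of tRNA:Gln-TTG-2-1 (FBgn0052493, chrX:3427452-3427523, minus strand), a glutamine tRNA gene whose sequence has no identical copy on the arms. Its peak at chrX:3427612-3427892 had a signal of 405.0 in the pooled list, 201.0 in replicate 1 and 202.0 in replicate 2, with ranks 441, 449 and 547. It was strong in both replicates. Replicate values in this and the next paragraphs are those of the overlapping replicate peak with the nearest summit. The second isolated peak, 460 bp upstream of tRNA:Ile-AAT-1-9 (chr2R:19715565-19715638), had a pooled signal of 352.0, but 277.7 in replicate 1 and 25.3 in replicate 2, with ranks 202 and 14960. The summit of that replicate 1 peak lay outside the 500 bp window, in which replicate 1 had only a peak of 23.3 at this gene. Replicate 2 had a stronger overlapping peak of 98.2 (rank 1954) beside the one of 25.3. Its values thus depend on which overlapping peak is taken.

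The other 3 isolated IDR peaks were weaker. The peak 225 bp upstream of tRNA:Gly-TCC-2-2 had a pooled signal of 172.8, with 105.8 in replicate 1 and 56.2 in replicate 2. The peak 370 bp downstream of the start of tRNA:Leu-CAG-1-1 had 150.6, with 81.3 in replicate 1 and 69.5 in replicate 2. A peak of 132.5, with 41.3 in replicate 1 and 95.2 in replicate 2, lay between the divergent arginine tRNA genes tRNA:Arg-CCT-1-2 and tRNA:Arg-CCT-1-3, 153 bp and 298 bp upstream of their starts. All 3 lie on arm 2R, and their replicate ranks ran between 1477 and 7042.

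Of the other 5 IDR peaks, which lay beside a protein_coding TSS, the strongest was counted for tRNA:Phe-GAA-1-2 on arm X, a phenylalanine tRNA gene whose start lay 310 bp from the summit. That summit was 5 bp from a TSS of RpL17, which encodes a protein of the large ribosomal subunit, and its signal was 295.9 in the pooled list, 205.1 in replicate 1 and 92.0 in replicate 2. The summit 180 bp upstream of tRNA:His-GTG-1-3 lay 70 bp upstream of CG8490, with 238.9 pooled, 129.8 in replicate 1 and 112.1 in replicate 2. A summit near tRNA:Trp-CCA-2-2 (195 bp upstream) and tRNA:Gly-GCC-1-9 (434 bp downstream of its start) lay 92 bp upstream of CG30122, with 202.0 pooled, 102.4 in replicate 1 and 102.5 in replicate 2. In all 3 the protein_coding TSS was the nearer one.

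The summit 125 bp upstream of the leucine gene tRNA:Leu-TAA-2-1 had a pooled signal of 179.1, with 63.3 in replicate 1 and 116.8 in replicate 2. It was nearer to the tRNA than to the protein_coding genes Root (447 bp) and CG13605 (450 bp). The summit at tRNA:Asp-GTC-1-4 (403 bp upstream) and tRNA:Asp-GTC-1-5 (265 bp downstream of its start), a pair of aspartate tRNA genes, had 156.5 pooled, 56.2 in replicate 1 and 97.7 in replicate 2. It was nearer, at 121 bp, to a TSS of Sema1a, which encodes an axon guidance protein.

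The lowest signal in the IDR list was 120.9, and the lowest of its tRNA-proximal peaks was the 132.5 at the arginine genes. Just outside that list, the highest other tRNA-proximal peak had 110.2 and rank 4139 in the pooled list. At the edge of the 500 bp window, the IDR summits just inside were those at tRNA:Ile-AAT-1-9 (460 bp) and tRNA:Gly-GCC-1-9 (434 bp). Those just outside were at tRNA:Leu-CAA-2-2 (589 bp, signal 341.5), tRNA:Tyr-GTA-1-7 (655 bp, the 829.8 peak named above) and tRNA:Lys-TTT-1-1 (675 bp, signal 123.7).

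The 5 isolated peaks that followed the IDR peaks in signal were of the serine, glutamate and arginine families, and 4 of the 5 had their summit within 100 bp of the start. The peak at tRNA:Ser-CGA-1-4 had 110.2 pooled, 57.3 in replicate 1 and 48.9 in replicate 2, with its summit inside the gene at 45 bp. The peak 86 bp upstream of tRNA:Glu-CTC-1-1 had 105.2, with 47.7 in replicate 1 and 61.2 in replicate 2. The peak inside tRNA:Ser-GCT-1-1, whose sequence is printed above, had 101.9, with 44.8 in replicate 1 and 56.1 in replicate 2. All 3 had similar signals in the replicates. The peak 81 bp upstream of tRNA:Arg-TCT-1-1 had 98.7, with 25.3 in replicate 1 and 55.8 in replicate 2, and a further overlapping peak of replicate 1 had 47.0. The peak 302 bp downstream of the start of tRNA:Glu-TTC-1-5 had 97.9, with 42.4 in replicate 1 and 58.4 in replicate 2. Each of these 5 peaks had a q-value of 7.66e-05, the smallest that the pooled list gives.

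Summits outside the IDR list often lay on or close to the tRNA gene. The median position of pooled summits was -15.5 bp from the nearest tRNA TSS, where negative is upstream on the strand of the gene. It was -31 bp for isolated peaks and 30 bp for those beside a protein_coding TSS. Within 100 bp of the TSS lay 62 of 140 isolated summits (44.3%) and 5 of 28 beside a protein_coding TSS (17.9%). Of the isolated summits 26 were inside the tRNA gene itself. Of the IDR summits, 0 of 11 lay within 100 bp, which allows a share of up to 28.5%, and the nearest was 125 bp away. By class these were 0 of 5 isolated IDR summits (up to 52.2%), against 45.9% of other isolated ones, and 0 of 6 beside a protein_coding TSS (up to 45.9%), against 22.7% of the others there. With so few IDR peaks, a difference within either class was not detectable. In all, 8 IDR summits were upstream and 3 downstream of the TSS, with a median position of -180 bp.

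Among isolated peaks outside the IDR list, a summit within 100 bp was found for 33 of 62 (53.2%, 40.1 to 66.0%) with a q-value below 0.05, against 29 of 73 (39.7%, 28.5 to 51.9%) with a higher one. The 62 isolated peaks with a summit within 100 bp had pooled signals of 26.8 at the lowest, 49.9 at the median and 110.2 at the highest. Those of the 78 isolated peaks farther away were 27.1, 45.5 and 405.0. The near peaks belonged to 18 isotypes, and 54 of them overlapped a peak of replicate 1, 51 one of replicate 2 and 43 (69.4%) both, against 47 of 78 (60.3%) in both for the farther ones. Each summit was assigned to its nearest tRNA TSS, and this favours short distances where genes lie close together.

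**Figure D2:**
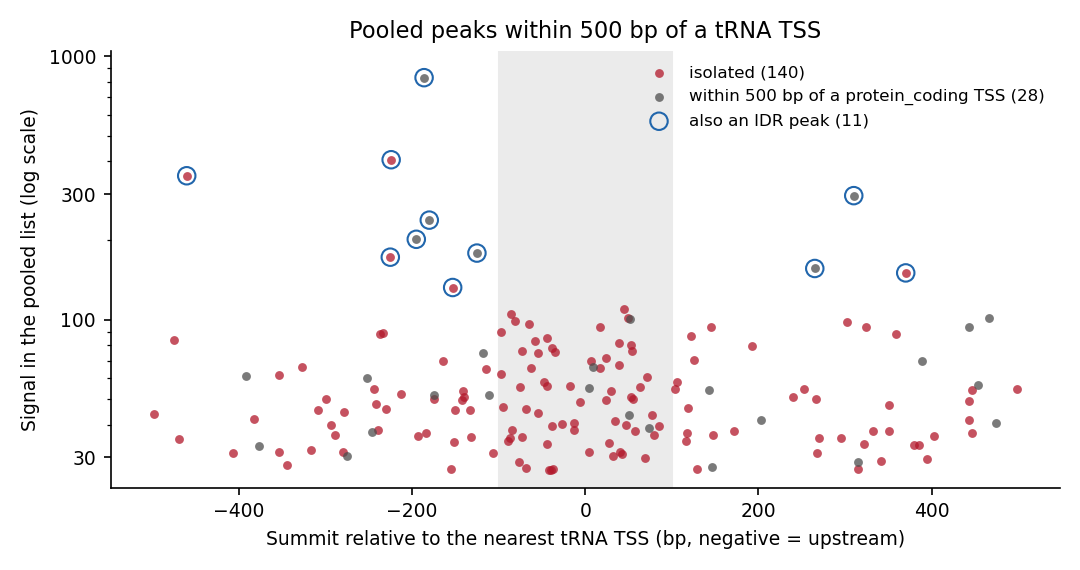
Pooled signal (y axis, log scale) against the distance of the summit from the nearest tRNA TSS (x axis, bp, negative upstream) for the 168 tRNA-proximal pooled peaks. Red points are the 140 isolated peaks, grey points the 28 with a protein_coding TSS within 500 bp, blue circles the 11 IDR peaks, and the grey band spans 100 bp either side of the TSS. No IDR peak lies in the band, and signals inside it do not pass 110.2.

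Counting every pair of TSS and summit, without assignment to the nearest, also gave more summits close to the TSS. A summit near several tRNA genes counts once for each, and summits at neighbouring genes enter the wider flank. The part of this in the ratios below was not tested. Per 100 tRNA TSSs and 100 bp of sequence there were 12.1 pooled summits within 100 bp of the TSS, and 5.0 at 500 to 2000 bp from it, a ratio of 2.41. Around protein_coding TSSs these values were 11.1 and 3.22, a ratio of 3.44, and around ncRNA TSSs they were 4.35 and 3.40. An even spread of the list over the arms would give 2.24. The 167 tRNA genes with no protein_coding TSS within 2000 bp had 12.0 within 100 bp and 4.81 farther out, a ratio of 2.49. In replicate 1 all tRNA genes had 8.97 and 4.24 (ratio 2.11), and those 167 had 7.78 and 4.21 (ratio 1.85). In replicate 2 all tRNA genes had 11 and 4.76 (ratio 2.32), and those 167 had 10.2 and 4.31 (ratio 2.36). The ratio for the 167 was thus lower than for all tRNA genes in replicate 1, and slightly higher in replicate 2 and the pooled list.

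The IDR list held few summits around tRNA genes, though more than an even spread at 500 to 2000 bp. Around tRNA genes it had 0 summits within 100 bp and 0.471 per 100 TSSs and 100 bp at 500 to 2000 bp. At so low a rate, 0 near 290 TSSs does not show a different shape. The bin 100 to 200 bp upstream held 5 summit and TSS pairs, or 1.72. A bin more than 1000 bp upstream held as many, so these bins cannot be told apart. Around protein_coding TSSs it had 1.88 within 100 bp and 0.379 farther out, with a maximum of 4.18 in the bin 100 to 200 bp upstream. An even spread would give 0.267.

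**Figure D3:**
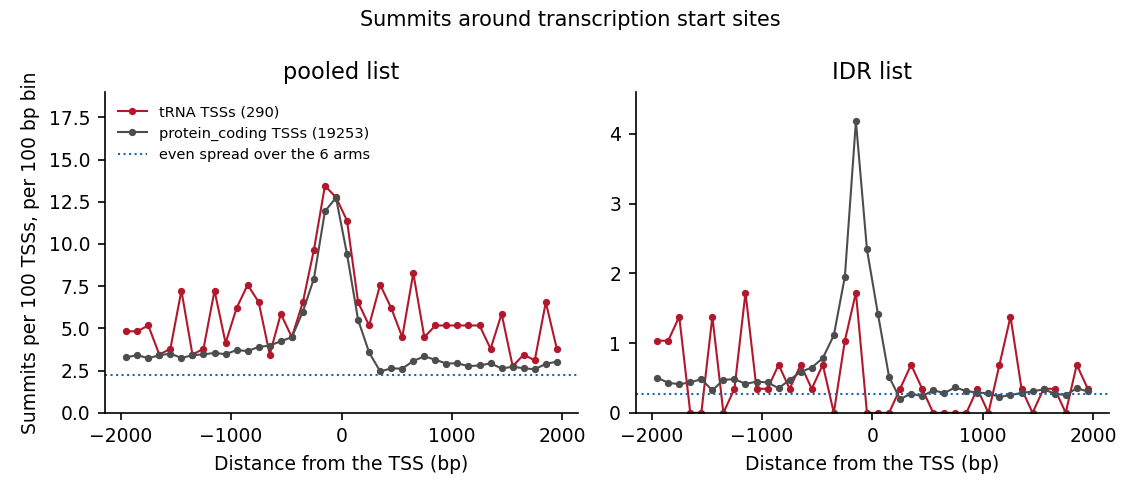
Summits per 100 TSSs in each 100 bp bin (y axis) against the distance from the TSS (x axis, bp) for the pooled list (left) and the IDR list (right), around 290 tRNA TSSs (red) and 19253 protein_coding TSSs (grey). The dotted line is an even spread over the 6 arms. Both classes rise around the TSS in the pooled list, with 12.1 and 11.1 within 100 bp. In the IDR list tRNA genes have 0 summits within 100 bp. At 500 to 2000 bp they have 0.471, and protein_coding TSSs have 0.379.

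The replicates were set side by side for the 168 pooled peaks. Of these, 81.0% overlapped a peak of replicate 1, 86.3% one of replicate 2 and 114 (67.9%) both, against 77.6%, 76.1% and 58.3% of every pooled peak. Overlap meant at least 1 bp, and 1 peak overlapped neither list. A peak in both lists was found for 90 of 140 isolated peaks (64.3%) and 24 of 28 beside a protein_coding TSS (85.7%). Over the peaks found in both, Spearman's rho of the ranks was 0.463 (n = 114), 0.410 for isolated peaks and 0.609 for the others. Pooled peaks with neighbouring summits can match the same replicate peak, and with each pair of replicate peaks counted once rho was 0.454 (n = 99). With the overlapping replicate peak of highest signal in place of the one with the nearest summit it was 0.555 (n = 114). These are descriptions over peaks that share libraries and tRNA clusters.

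The largest disagreements were at peaks of middling pooled signal. The peak inside tRNA:Cys-GCA-1-3 stood at percentile 81.6 in replicate 1 and 7.56 in replicate 2. The peak at tRNA:Leu-CAG-1-2 stood at 72.9 in replicate 1 and 2.01 in replicate 2, and that at tRNA:Lys-CTT-1-3 at 2.04 in replicate 1 and 68.2 in replicate 2. The pooled signals of these peaks were 55.5, 37.7 and 52.0, and all 3 are isolated. At tRNA:Cys-GCA-1-3 a stronger overlapping peak of replicate 2 stood at percentile 72.6, so that disagreement rests on the choice of peak. At tRNA:Leu-CAG-1-2 replicate 2 had a stronger summit of 27.8 within 500 bp of the gene that did not overlap this peak. At tRNA:Lys-CTT-1-3 each replicate had 1 summit within 500 bp.

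**Figure D4:**
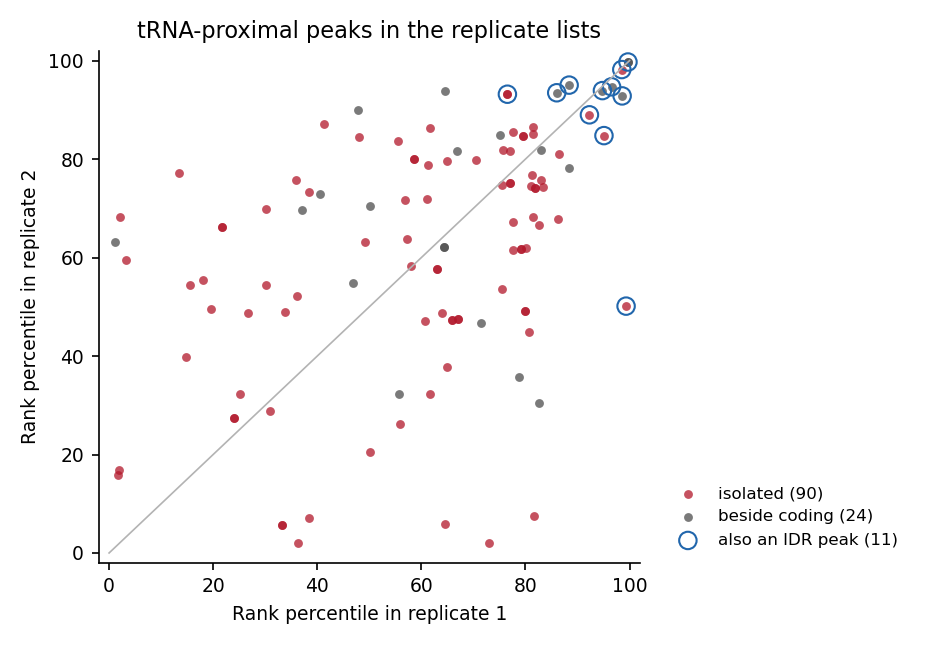
Rank percentile in replicate 2 (y axis) against that in replicate 1 (x axis), where 100 is the strongest peak, for the 114 tRNA-proximal pooled peaks found in both replicate lists. Red points are isolated, grey points lie beside a protein_coding TSS, blue circles are IDR peaks, and the line marks equal percentiles. The IDR peaks gather at the upper right except the one at tRNA:Ile-AAT-1-9 (99.3 in replicate 1, 50.1 in replicate 2), where a stronger overlapping peak of replicate 2 stood at 93.5.

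Neighbouring tRNA genes were joined into 144 clusters where their TSSs lay at most 5000 bp apart. A pooled summit was present at 85 clusters (59.0%) and an IDR summit at 11 (7.64%). Of the 76 clusters of 1 gene, 30 (39.5%) had a pooled and 6 (7.89%) an IDR summit. That pooled share was below those of all genes (48.7%) and protein_coding genes (53.5%). Of the 58 clusters of 2 to 4 genes, 45 (77.6%) had a pooled and 5 (8.62%) an IDR summit. All 10 clusters of 5 or more genes had a pooled summit, at 53 of their 72 genes (73.6%), and 0 of the 10 had an IDR summit. Larger clusters offer more windows in which a summit can fall, so these shares are not on an equal footing.

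In the largest clusters many summits were present, and none was an IDR summit. The cluster of 11 genes at chr2R:6161535-6171687, with arginine, asparagine, isoleucine and lysine tRNA genes over 10152 bp, had a pooled summit near 10 genes from 6 isolated peaks, with signals of 27.2 to 78.1. In replicate 1 the summits reached 6 of its genes and in replicate 2 they reached 8. The cluster of 11 genes at chr3R:17617761-17631679, with alanine, proline, threonine and valine tRNA genes over 13918 bp, had summits near 7 genes from 7 peaks of 28.7 to 71.6, near 7 genes in replicate 1 and near 6 in replicate 2.

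Each of the next 3 clusters held 7 genes. The one of 5 glutamate and 2 initiator methionine genes on arm 2R had pooled summits near 6 genes, with signals of 36.6 to 97.9, and summits near 4 genes in replicate 1 and 7 in replicate 2. The one of 5 isoleucine and 2 leucine genes on arm 2R had pooled summits near 4 genes, with 6 in replicate 1 and 3 in replicate 2. The one of 5 arginine and 2 serine genes on arm X had pooled summits near 3 genes, with 2 in replicate 1 and 3 in replicate 2.

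By amino acid, a pooled summit was found in every tRNA family, where 60.0% of all 290 tRNA genes had one. At that share most families of several genes would hold 1 or more, so the counts below are descriptions only. Each of the 22 isotypes, the families named by the amino acid in the gene symbol, had at least 1 gene with a pooled summit, and 21 had one in both replicate lists. The single selenocysteine gene had one in replicate 1 and not in replicate 2. An IDR summit was present in 10 isotypes, with 1 or 2 genes in each. In the pooled list the initiator methionine genes had summits at 5 of 6, isoleucine at 9 of 11 and alanine at 13 of 17. At the other end stood histidine with 2 of 5, tyrosine with 4 of 10 and valine with 6 of 15. The replicate counts were 5 and 5 for initiator methionine, 9 and 7 for isoleucine, 11 and 12 for alanine, 2 and 2 for histidine, 6 and 6 for tyrosine and 5 and 6 for valine.

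Of 45 anticodons, 42 had a pooled summit at 1 gene or more. The other 3 were Leu-TAG with 2 genes, Thr-CGT with 3 and Val-TAC with 2. In the replicate lists 0 of 2 genes (replicate 1) and 2 of 2 (replicate 2) of Leu-TAG had a summit, 2 of 3 in each for Thr-CGT, and 1 of 2 and 0 of 2 for Val-TAC. So 0 anticodons lacked a summit in all 3 lists, which are not independent, because the pooled list derives from both replicates.

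**Figure D5:**
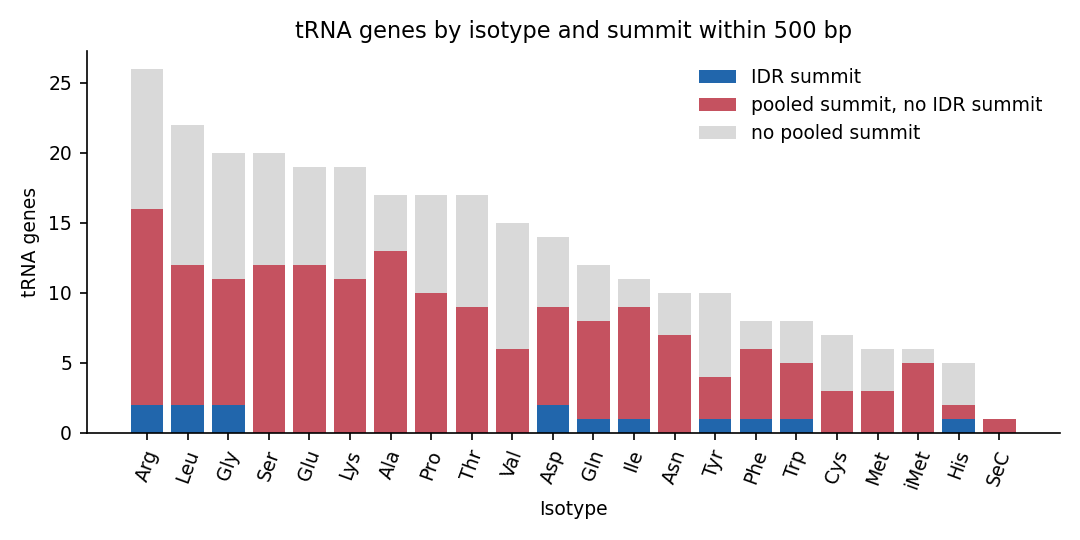
Number of tRNA genes (y axis) of each isotype (x axis), split into those with an IDR summit within 500 bp (blue), those with a pooled but no IDR summit (red) and those with neither (grey). Every isotype has a pooled summit at 1 gene or more, and 10 of 22 have an IDR summit.

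By arm, a pooled summit was present at 71 of 98 tRNA genes on 2R (72.4%), 26 of 41 on 2L (63.4%), 43 of 79 on 3R (54.4%), 26 of 48 on 3L (54.2%) and 8 of 24 on X (33.3%). The share of protein_coding genes was 55.7% on 2R, 50.2% on 2L, 53.3% on 3R, 53.6% on 3L and 55.1% on X. On X the share was 6 of 24 tRNA genes (25%) in replicate 1, against 52.0% of protein_coding genes, and 8 of 24 (33.3%) in replicate 2, against 56.5%. The X values rest on 24 genes, and differences between arms were not tested. The 14 genes with an IDR summit were 8 on 2R, 2 on 2L, 2 on 3R, 2 on X and 0 on 3L.

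Identical gene copies bear on where reads can be placed, and how the authors treated reads that match several sites is not given in the sources used here. Of the 290 genes, 238 had an identical copy elsewhere on the arms and 52 had none. A pooled summit was present at 147 of 238 genes with a copy (61.8%) and 27 of 52 without (51.9%). The replicates differed in this: replicate 1 had 52.9% of genes with a copy and 61.5% of those without, and replicate 2 had 68.5% of genes with a copy and 46.2% of those without. The shares of protein_coding genes were 53.5% in the pooled list, 50.6% in replicate 1 and 55.4% in replicate 2. Genes without a copy were thus below them in the pooled list and replicate 2, and above in replicate 1. In the IDR list the shares were 4.62% with a copy and 5.77% without. Isolated summits within 100 bp were 53 of 118 (44.9%) where the nearest gene had a copy and 9 of 22 (40.9%) where it had none. The part of read placement in these values was not tested.

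The A and B boxes were looked for in the 101 bases around each summit, on both strands, as TGGCNNAG for the A box and GTTCGANNC for the B box. On the sense strand of the whole genes the A box word was present in 68 of 290 tRNA genes and the B box word in 160. Around isolated summits within 100 bp of a tRNA TSS the B box word was present in 15 of 62 windows (24.2%), against 0 of 78 around those farther away and 0.823% of all pooled windows. The A box word was present in 9 of 62 (14.5%), against 1 of 78 (1.28%) and 4.80% of all pooled windows. Around the 11 IDR summits the B box word was present in 1 window (9.09%), against 1.01% of all IDR windows. The A box word was present in 0 of the 11, against 3.05% of all IDR windows.

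Many tRNA genes lack these exact words. With the wider B box word GNTCNANNC, which includes the first, 289 of 290 genes matched, and so did 29 of 62 windows within 100 bp (46.8%), 8 of 78 farther away (10.3%), 2 of 11 IDR windows and 9.14% of all pooled windows. With the A box consensus 272 of 290 genes matched, with 30 of 62 near windows (48.4%), 6 of 78 farther ones (7.69%), 0 of 11 IDR windows and 13.3% of all pooled windows. A window within 100 bp of a tRNA start overlaps the gene by its position, so these matches describe where the summits lie and name no site.

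In base composition the windows of the IDR summits stood apart from tRNA genes. The GC content was 58.1% ± 4.34 in the 290 genes (SD over genes), 43.9% ± 7.45 around the 62 isolated summits within 100 bp and 39.2% ± 10.3 around the 78 farther ones. It was 34.6% ± 8.83 around the 11 tRNA-proximal IDR summits and 33.7% ± 9.47 around every IDR summit, against 41.0% ± 10.3 around every pooled summit and 42.2% over the arms. The part of composition in these positions was not tested.

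Other genes read by RNA polymerase III were compared. The 96 annotated 5S rRNA genes, which use an internal promoter that needs the factor TFIIIA, had 0 summits within 500 bp in all 4 lists, which allows a share of up to 3.77%. They form a repeated array, whose part in this was not tested. Of 10 other such genes, with U6, U6atac, 7SK, 7SL, RNase P and RNase MRP RNAs, 6 (26.2 to 87.8%) had a pooled summit and 2 (2.52 to 55.6%) an IDR summit, intervals that hold the shares of all genes, 48.7% and 12.1%. RNaseMRP:RNA, the RNA of a ribonuclease that processes ribosomal RNA, had a summit 57 bp after its start, with signals of 142.5 pooled, 64.9 in replicate 1 and 74.8 in replicate 2. At snRNA:7SKa, which encodes a regulator of transcription elongation, the summit was 231 bp after the start, with 128.8 pooled, 102.6 in replicate 1 and 55.2 in replicate 2. The 2 genes of 7SL RNA, a part of the signal recognition particle, had no summit in the 4 lists.

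The protein_coding genes for the machinery that reads and processes tRNA genes included 10 with an IDR summit. Of 42 listed symbols 35 matched the annotation, of which 30 (85.7%) had a pooled summit and 10 (28.6%, 14.6 to 46.3%) an IDR summit, against 53.5% and 14.1% of protein_coding genes. The symbols listed for TFIIIC were among those without a match, so its genes were not examined. Among the matched genes the strongest were the 2 genes of TFIIIB subunits. Bdp1 had a signal of 447.4 in the pooled list, 228.0 in replicate 1 and 226.7 in replicate 2, and Brf had 414.2, 142.6 and 273.0. Their partner Trf had a weak pooled peak of 40.0, with 20.6 in replicate 1 and none in replicate 2.

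Of the polymerase III subunit genes, Polr3E had a signal of 284.9 in the pooled list, with 117.3 in replicate 1 and 172.5 in replicate 2. Polr3F (134.9) followed, and Polr2H (201.2) and Polr2F (132.5) encode subunits shared with other polymerases. Among processing genes, CG2100, which is listed as the enzyme that adds CCA to tRNAs, had 167.3. RNaseZ, which trims the tRNA 3′ end, had 131.5, and Rpp20, a protein of RNase P, had 129.5. All 10 genes had a summit in both replicate lists.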

How the data were processed

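CG2202-GFP ChIP-seq peaks were analysed for 2 biological replicates of whole embryos (1 group). The authors deposited 4 narrow peak lists on dm6: 1 per replicate, a pooled and an IDR list. The README texts deposited with the lists name, for each replicate, its own alignment and a control alignment as the input. For the aligner, the peak caller, the IDR threshold and the treatment of reads that match several sites, the sources used here say nothing. A signal value and a −log10 q-value from the authors' caller stand beside each deposited peak. Depth is unknown, so no interval based on reads was computed.

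Genes came from the Ensembl release 115 annotation of Release 6, whose arm lengths match dm6. Genes of biotype transposable_element and pseudogene (6077) were left out. The summit is the peak start plus its offset. Signal was used within a list only. Columns of other samples numbered 0.

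Members, gene lists and words were chosen with earlier results of these data known, so all values are descriptions with no test of difference. Named genes are those with an IDR summit, the 10 strongest isolated pooled peaks, the 5 largest clusters, the 3 peaks of most unlike replicate ranks and listed polymerase III genes with an IDR summit; values of other genes were named after they were seen. The values of 1 listed gene are not reported here. Alternatives were other windows, a 1000-peak list, a q-value limit of 0.05, other cluster gaps and each replicate alone. The scripts ran under Python 3.11.15 with pandas 2.3.3, numpy 2.4.6, matplotlib 3.10.9 and scipy 1.17.1, and the counting was tested on simulated data.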

Additional observations from a re-analysis of the deposited data

How the results depend on the processing

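The share of tRNA genes with an IDR summit was 2.41% at 250 bp, 7.59% at 1000 bp, 1.38% with the 1000 strongest IDR peaks and 2.71% for genes with no protein_coding TSS within 500 bp. With 1 replicate left out it was 3.45% to 5.17%. The pooled share was 44.8% at 250 bp, 73.8% at 1000 bp and 38.3% with a q-value below 0.05, and 54.5% to 64.5% with 1 replicate left out. Of IDR peaks, 47.1% lay beside a protein_coding TSS with the 1000 bp tRNA window, 36.4% where beside meant 250 bp, and 55.6% to 63.6% with 1 replicate left out. Of pooled peaks, 13.9% did so at 250 bp, 20.1% at 1000 bp, 22.1% with a q-value below 0.05, 29.8% and 7.74% where beside meant 1000 bp and 250 bp, and 15.8% to 16.0% with 1 replicate left out. The median summit position was -38 bp at 250 bp, -40.5 bp at 1000 bp, -12 bp with a q-value below 0.05, -51.5 bp from the gene centre and -21 to -18 bp with 1 replicate left out. The median percentile was 58.9 at 250 bp, 52.0 at 1000 bp, 73.4 with a q-value below 0.05 and 55.4 to 55.9 with 1 replicate left out. Of clusters, 4.86% had an IDR summit at 250 bp, 11.8% at 1000 bp, 2.78% with the 1000 strongest IDR peaks, 6.29% and 9.09% with gaps of 1000 and 20000 bp, and 6.25% to 7.64% with 1 replicate left out. The share of isolated pooled summits within 100 bp was 49.3% with a q-value below 0.05, 39.3% from the gene centre and 37.5% to 42.7% with 1 replicate left out. Spearman's rho of replicate ranks, 0.463 as reported, was 0.555 with the overlapping peak of highest signal and 0.454 with each pair counted once. Wider windows, longer gaps and longer lists take in more summits by their construction, and the cause of the other shifts was not tested. Of 52 alternatives over 9 results, 12 stayed within 1 SD between the replicate lists. The alternatives of rho had no such SD and were counted as outside it without a comparison. Each SD rests on the 2 values with 1 replicate left out, which are themselves among the alternatives. It was 0.170 percentage points for pooled peaks beside a protein_coding TSS, so small shifts fall outside it. The share within 100 bp, its alternatives, those of rho and the wider box words were chosen after seeing the data. Leaving out 1 replicate meant using the other replicate's own list, and for IDR results the 3571 peaks of highest signal in that list. No paired analysis was possible because the 2 samples form 1 group. Read depth, which limits which weak peaks can be told from background, is unknown, and 82 of the 168 tRNA-proximal pooled peaks had a q-value of 0.05 or more.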
